A study of Mus musculus with 2 samples.

Results

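The genes described here encode the molecular chaperones of the mouse and their direct partners: the HSP90 proteins, the HSP70 and HSP110 proteins, the mitochondrial chaperonin, the cytosolic chaperonin CCT, prefoldin, the J-domain proteins (DNAJA, DNAJB and DNAJC), the small heat shock proteins, the BAG proteins, the adaptors Stip1 and St13, and the heat shock factor Hsf1. The rule that picks them uses gene symbols alone, among transcripts that GENCODE M21 annotates as protein-coding, and no measured value. It was set with earlier results of these data known. The rule found 240 of the 49490 protein-coding transcripts in the table, from 91 of 21587 genes. Dnajc15, which also matches the rule, was not analysed here.

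The cells were wild-type mouse embryonic stem cells (mESC) of the feeder-depleted line DTCM23/49 XY, grown on gelatin in serum with leukemia inhibitory factor. They received 4-thiouridine (4sU), a uridine analogue that is built into new RNA, at 200 µM for 10 min. RNA with 4sU was coupled to biotin and captured on streptavidin beads (labeled RNA), and the RNA left in the supernatant was kept (unlabeled RNA, which the labels call preexisting in 1 field and total in another). Each pool was sequenced as 1 library, both of biological replicate 1, so no difference below has a replicate check and none was tested.

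Chaperones bind unfolded or partly folded proteins and help them to reach or keep their native fold. HSP70 works in cycles of ATP binding and hydrolysis that J-domain proteins start and that HSP110 and BAG proteins end by exchanging the nucleotide, and HSP90, reached through adaptors such as Stip1, acts on later folding states of kinases and receptors. CCT folds actin and tubulin inside a double ring, and prefoldin hands it these clients. Many of these genes belong to the heat shock response, which Hsf1 drives through heat shock elements in their promoters, and those of the endoplasmic reticulum (ER) belong to the unfolded protein response, which acts through the ER stress response element.

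These elements were searched in the promoters of the chaperone genes, since they name the groups used below. The windows run from 250 bases before to 50 bases after a RefSeq start site on GRCm38.p6, and 74 of the 92 annotated genes of the rule had at least 1, in 96 windows. A heat shock element written as GAANNTTCNNGAA, on either strand, was found in 6 windows of 4 genes, or 6.25% of the windows, against 0.603% of all 32851 windows. These windows repeat sites, since Dnajb6 and Hsph1 each have a single site that lies in a pair of overlapping windows. Hspd1 and Hspe1, the subunits HSP60 and HSP10 of the mitochondrial chaperonin, share a site, since the genes lie head to head on chromosome 1. It is shown on the Hspe1 strand (chr1:55088054-55088081, +) and ends 72 bases before the Hspe1 start, beside the sites of Dnajb6 (chr5:29735847-29735869, +) and Hsph1 (chr5:149636283-149636305, −). Capitals mark the match, which in the shared site is a pair of overlapping matches.
Hspe1 and Hspd1: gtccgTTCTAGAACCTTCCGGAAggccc
Dnajb6: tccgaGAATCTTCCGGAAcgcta
Hsph1: gcagaTTCTGGAAAGTTCtcctc

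The ER stress response element, written as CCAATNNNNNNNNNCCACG on either strand, was found in 3 windows of 3 genes, or 3.12% of the windows, against 0.119% of all windows. These genes were Hspa5 (BiP, the HSP70 of the ER; chr2:34772020-34772048, +), Hsp90b1 (GRP94, the HSP90 of the ER; chr10:86705633-86705661 and chr10:86705528-86705556, −) and Dnajc3 (p58IPK, an ER J-domain protein; chr14:118937822-118937850, +). They are shown because these 3 genes had the same labeled to unlabeled exon ratio, given below.
Hspa5: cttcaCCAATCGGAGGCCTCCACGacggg
Hsp90b1, far site: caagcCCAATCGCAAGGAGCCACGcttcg
Hsp90b1, near site: gagtgCGTGGTGAGGCACGATTGGtgagt
Dnajc3: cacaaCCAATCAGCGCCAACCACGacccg

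A TATA box written as TATAAA was in the windows of 5 chaperone genes (Dnajc19, Dnajc24, Hspb3, Hspb6 and Stip1), or 5.21% of the windows, against 13.6% of all. A match describes the letters and not a bound site. The genes with no entry among these windows were Bag4, Cct4, Dnajc11, Dnajc12, Dnajc18, Dnajc2, Dnajc22, Dnajc30, Dnajc5, Hsf1, Hsp90aa1, Hsp90ab1, Hspa13, Hspa8, Hspa9, Hspb2, Pfdn1 and St13.

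All values are relative abundances as the authors deposited them, with an exon value and an intron value per transcript, normalised for length within each library on a scale 10 times that of TPM. The exon value of a gene is the sum over its protein-coding transcripts. Since each library was scaled on its own, the labeled to unlabeled exon ratio is given on the log2 scale relative to the median gene, whose uncentred ratio was 0.837. A value of 1 thus means that the labeled share was 2-fold above that of the median gene. In a short pulse the labeled share is larger for RNA that turns over faster. Of the 91 genes, 88 passed the minimum used for all genes (a mean exon value above 1 and both exon values above 0). Dnajb3 (0.40 labeled and 1.27 unlabeled), Dnajb8 (listed at 0 in both) and Hspb2 (1.47 labeled and listed at 0 unlabeled), forms best known from testis or muscle, did not.

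The cells carried the markers of their label. All 8 embryonic stem cell markers on a fixed list were present, with a summed exon value of 10345 in labeled and 12606 in unlabeled RNA, while 6 fibroblast markers summed to 7.26 and 16.2, with Col3a1, Postn and Lum at 0. Early differentiation markers summed to 74.6 and 78.2, mostly from Pax6, with Gata6, Sox17 and Foxa2 at 0. Read depth is unknown, so no counting error can be set beside any single value. In bulk RNA, fewer cells with a transcript and less of it per cell cannot be told apart.

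Chaperone exons made up 0.873% of labeled and 1.18% of unlabeled RNA as measured here, most of it from 3 genes. Hsp90aa1, the stress-inducible cytosolic HSP90, had an exon value of 32008 in labeled and 35478 in unlabeled RNA. Hspa8, the constitutive cytosolic HSP70, had 10742 and 18112, and Hsp90ab1, the constitutive cytosolic HSP90, had 6051 and 13942. Together these genes made up 55.9% of the chaperone exon value in labeled and 57.1% in unlabeled RNA. A mean exon value of at least 1000 was reached by 19 genes, while 16 of the 88 lay below 10.

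**Figure D1:**
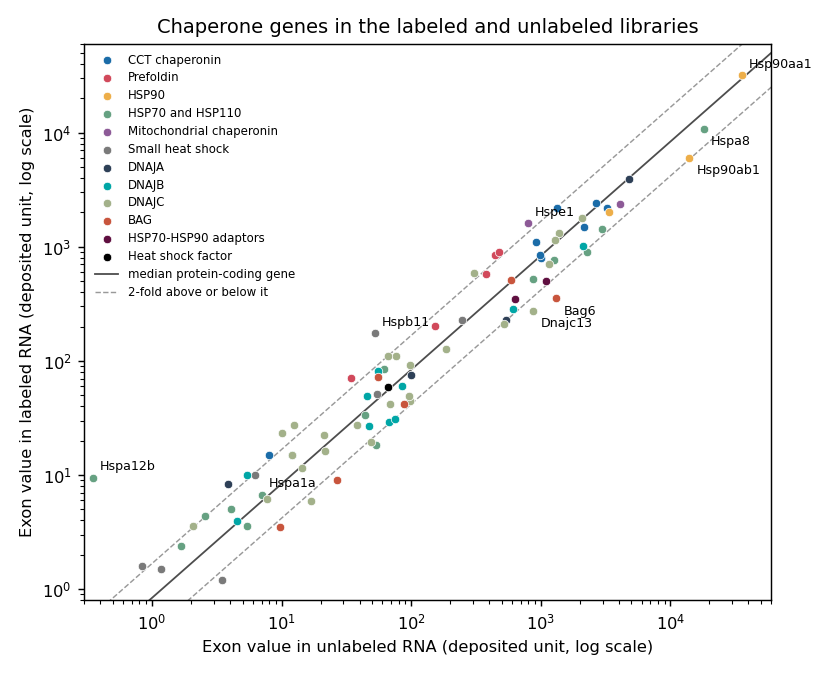
Exon value of each chaperone gene in unlabeled RNA (x axis) and labeled RNA (y axis), both in the deposited unit on log scales, with 1 point per gene and library pair and colors for families. The solid line is the median protein-coding gene and the dashed lines are 2-fold above and below it. Most points lie between the dashed lines, Hspb11 and Hspa12b lie above and Bag6 and Dnajc13 below.

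Centred on all genes, the chaperone group lay near the median gene. Its median log2 labeled to unlabeled exon ratio was 0.04 (95% interval of the median over genes −0.24 to 0.19, which does not cover measurement error), with quartiles of −0.57 and 0.74 against −0.68 and 0.84 for all 14127 genes. The ratio was at least 2-fold above the median gene in 15 of 88 chaperone genes (95% Wilson interval 10.6 to 26.2%), against 21.9% of all genes, and at least 2-fold below it in 10 (6.29 to 19.7%), against 14.8%. The background lies inside both intervals. The group's position rests on the centring: relative to genes with a mean exon value of at least 100 the median was 0.42, with 25 genes at least 2-fold above and 2 below, and within 5 bins of spliced length (added after seeing the data) it was −0.18, with 9 above and 12 below. Genes of at least 100 had a median of −0.38 themselves, so centring on them raised all genes alike. The shares of all genes beyond 2-fold under that centring were not counted. With intron values subtracted from exon values, the median of the chaperone genes was 0.48. Among the families, prefoldin lay above the median gene throughout, most BAG genes and both adaptors below it, and CCT close to it. The families hold 1 to 25 genes that passed, and medians of so few genes scatter more than a median of 88.

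**Figure D2:**
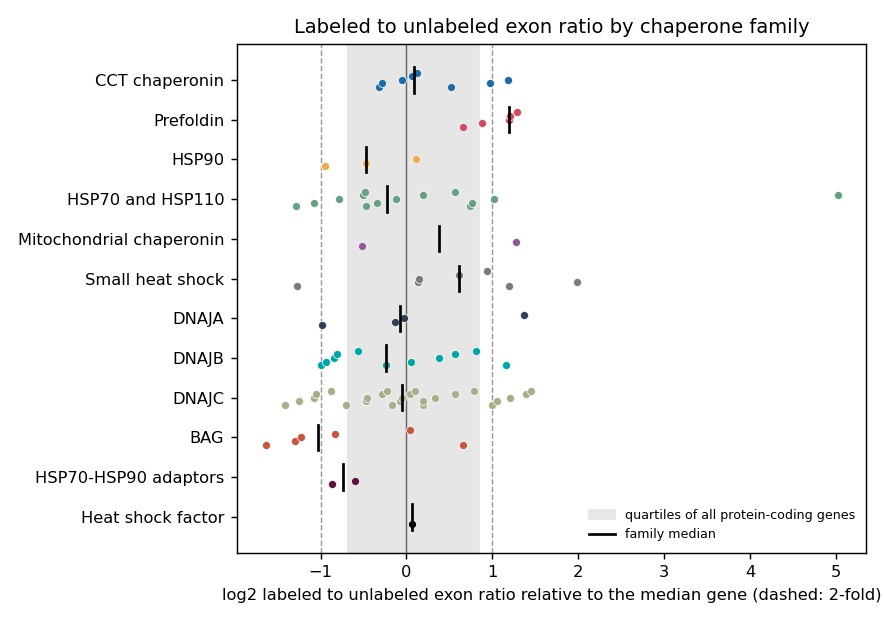
Log2 labeled to unlabeled exon ratio relative to the median gene (x axis) for each of the 88 chaperone genes, by family, with 1 point per gene, a black bar for the family median, dashed lines at 2-fold and a grey band for the quartiles of all genes (−0.68 to 0.84). The 5 prefoldin genes lie between 0.66 and 1.29, and the BAG median lies at −1.03.

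The cytosolic HSP90 paralogs differed in the labeled share. The log2 ratio was 0.11 for Hsp90aa1 and −0.95 for Hsp90ab1. Hsp90b1, with exon values of 2021 labeled and 3338 unlabeled, lay at −0.47. Hsp90aa1 was thus close to the median gene and Hsp90ab1 1.93-fold below it, at the 16.2 percentile of all genes.

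The HSP70 and HSP110 family of 14 genes had a median of −0.23, with 2 genes at least 2-fold above and 2 at least 2-fold below the median gene. These were 14.3% each, against 21.9% and 14.8% of all genes. The abundant members of the family lay below the median gene. Hspa8 lay at −0.50, Hspa5 (769 labeled and 1268 unlabeled) at −0.47, and Hspa9 (mortalin, the HSP70 of the mitochondrial matrix; 521 and 866) at −0.48. Of the HSP110 genes, Hspa4 (1424 and 2948) at −0.79 and Hsph1 (898 and 2253) at −1.07 lay lower still. Hspa4l (33.5 and 43.6) lay at −0.12. Hspa13 (STCH, a microsomal HSP70; 18.5 and 53.6) had the lowest ratio of the family, −1.28. Hspa14, which works at the ribosome with the J-domain protein Dnajc2, lay above the median gene at 0.74 (85.5 and 61.1).

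The inducible HSP70 genes were scarce in these cells. Hspa1a had exon values of 6.74 labeled and 7.04 unlabeled (log2 0.19) and Hspa1b had 3.59 and 5.41 (−0.34). Their coding sequences are near-identical, so how reads were split between them is uncertain. Hspa1l (4.36 and 2.56, log2 1.02) and Hspa2 (5.04 and 4.06, log2 0.57), best known from testis, and the distant relatives Hspa12a (2.38 and 1.68, log2 0.76) and Hspa12b (9.50 and 0.35) were also under 10. The Hspa12b log2 ratio of 5.02, the highest of all 88 genes, thus rests on an unlabeled exon value below 1.

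The mitochondrial chaperonin subunits differed although their genes share a promoter region. Hspd1 had exon values of 2378 in labeled and 4075 in unlabeled RNA, and Hspe1 had 1603 and 791. Hspd1 lay below the median gene (log2 −0.52) and Hspe1 above it (log2 1.28), a difference of 1.80 on the log2 scale, or 3.47-fold. In unlabeled RNA Hspd1 exceeded Hspe1 by 5.15-fold, but in labeled RNA by 1.48-fold. On GRCm38 the start sites of their most abundant coding transcripts lie at chr1 55088024 (Hspd1, −) and 55088132 (Hspe1, +), with 107 bases between them. The RefSeq start sites lie 216 bases apart and hold between them the heat shock element printed above. The transcripts differ in spliced length, 2423 bases for Hspd1 and 774 for Hspe1, and relative to the genes of the same length (5 bins of equal size) the log2 ratios were −0.55 and 0.73.

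**Figure D3:**
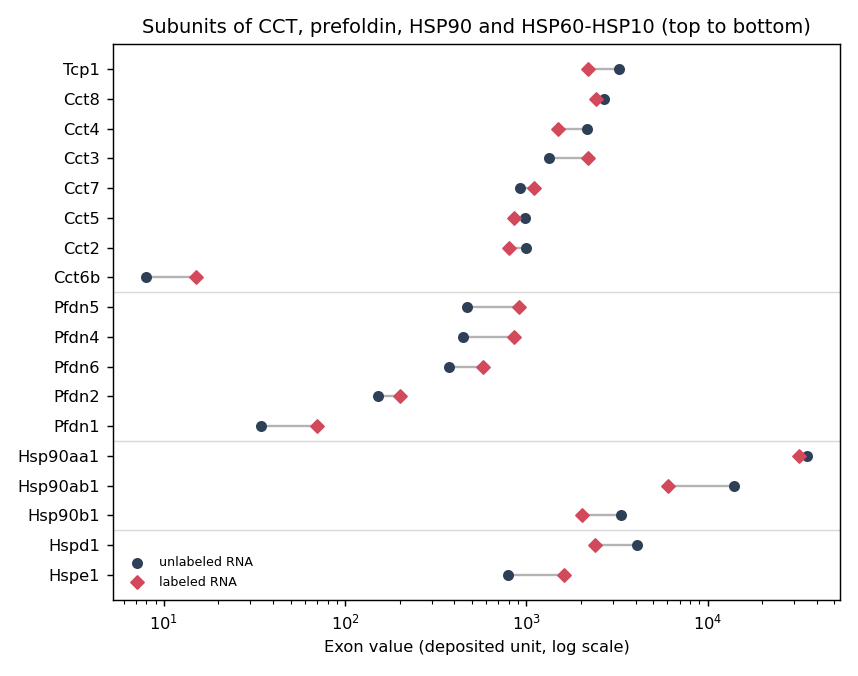
Exon value (x axis, deposited unit, log scale) in unlabeled RNA (circles) and labeled RNA (diamonds) of the subunit genes of CCT, prefoldin, HSP90 and the mitochondrial chaperonin, 1 library each. All 5 prefoldin genes and Hspe1 have the labeled value to the right of the unlabeled one, and Hspd1 and the 3 HSP90 genes have it to the left.

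CCT is a ring of 8 different subunits, and 5 of its genes had log2 ratios close to each other while Cct7, Cct3 and Cct6b lay higher. The 7 subunit genes other than Cct6b had mean exon values between 901 (Cct2) and 2707 (Tcp1). Tcp1 (2176 labeled and 3239 unlabeled) and Cct4 (1484 and 2148) had the lowest log2 ratios, −0.32 and −0.28. Cct2 (805 and 997), Cct5 (855 and 981) and Cct8 (2425 and 2665) lay at −0.05, 0.06 and 0.12. These 5 genes were within 0.44 of each other on the log2 scale. Cct7 (1097 and 916) lay at 0.52 and Cct3 (2197 and 1338) at 0.97. The family median was 0.09. Cct6b, the testis form of the zeta subunit, was scarce (15.1 and 7.93) and lay at 1.18.

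Cct6a, the zeta subunit of most tissues, has no transcript of the protein-coding biotype in GENCODE M21 and is therefore not among the 91 genes. Its most abundant transcript (a processed transcript in the annotation) had exon values of 3073 in labeled and 9859 in unlabeled RNA, a log2 ratio of −1.43. The 4 processed transcripts lay between −1.65 and −1.43, below each of the 8 CCT genes of the rule. The 3 transcripts with a retained intron lay between −1.09 and 0.74.

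Prefoldin, the hexamer that delivers clients to CCT, had the highest family median of the labeled share. Pfdn1 had exon values of 70.1 in labeled and 34.3 in unlabeled RNA (log2 1.29), Pfdn5 had 909 and 471 (1.20), and Pfdn4 had 853 and 446 (1.19). Pfdn6 (577 and 375) and Pfdn2 (201 and 152) lay at 0.88 and 0.66. All 5 genes were above the median gene, and 3 of them at least 2-fold. The remaining subunit, prefoldin 3, is encoded by Vbp1, which the rule does not match. Vbp1 had 166 labeled and 376 unlabeled and lay on the other side, at −0.92. The prefoldin transcripts are short, with a median spliced length of 736 bases. Centred within the 5 length bins, the family median was 0.65 in place of 1.19. Every gene stayed above 0, from 0.11 (Pfdn2) to 0.92 (Pfdn1), and thus short of 2-fold.

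The genes of the J-domain proteins, which choose the clients of HSP70, lay on both sides of the median gene. Of the DNAJA genes, Dnaja1 was by far the most abundant (3943 labeled and 4806 unlabeled, log2 −0.03). Dnaja2, its close relative, had 230.1 and 540.3 (−0.98), and Dnaja3, of the mitochondrion, had 75.9 and 99.1 (−0.13). Dnaja4 was scarce, at 8.38 and 3.88.

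Of the 13 DNAJB genes, 11 passed, with a median of −0.24. Among them 1, the scarce Dnajb2, was at least 2-fold above the median gene (9.09%, against 21.9% of all genes). Dnajb6, which keeps aggregation-prone proteins soluble, was the most abundant (1014 labeled and 2127 unlabeled, log2 −0.81). Dnajb11 and Dnajb9, J-domain proteins of the ER lumen that serve BiP, followed with 287 and 612 (−0.84) and with 60.3 and 85.0 (−0.24). Dnajb1, of the heat shock list and the main cytosolic HSP40, had 49.5 and 45.4 (0.38).

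The 25 DNAJC genes, a class defined only by the J domain, had a median of −0.05 and the widest range of function, with 4 at least 2-fold above and 4 at least 2-fold below the median gene. The 3 most abundant were close to the median gene. Dnajc2 (MPP11, at the ribosome exit) had 1792 and 2081 (0.04), Dnajc7 (an adaptor with tetratricopeptide repeats) had 1322 and 1387 (0.19), and Dnajc8 (associated with the spliceosome) had 1152 and 1282 (0.10). The genes far from the median were less abundant. Dnajc13 (RME-8, of endosomes) had 276 and 875 (−1.41) and Dnajc12 had 5.94 and 16.9 (−1.25). At the other end lay Dnajc28 with 23.2 and 10.1 (1.45) and Dnajc25 with 27.4 and 12.5 (1.39).

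Of the 8 small heat shock genes 7 passed. Hspb1 (HSP27 of human cells, HSP25 in mouse) had 228 labeled and 247 unlabeled (0.14), and Hspb8, the partner of Bag3 in selective autophagy, had 51.0 and 54.9 (0.15). Hspb11, grouped here by its name, encodes IFT25, a subunit of the intraflagellar transport complex of cilia. It had 174 and 52.6 and the highest ratio of all chaperone genes with a mean exon value of at least 10 (1.99). Its 3 coding transcripts had log2 ratios between 1.83 and 2.29.

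The BAG family, nucleotide exchange factors of HSP70, had the lowest family median, −1.03, and the gene with the lowest ratio. Bag6, which guards membrane proteins on their way to insertion, had 354 in labeled and 1318 in unlabeled RNA (−1.64, at the 4.01 percentile of all genes). Bag3, the stress-inducible member, had 9.09 and 26.7 (−1.30), and Bag2, which inhibits the ubiquitin ligase CHIP, had 3.49 and 9.80 (−1.23). Bag4 (41.9 and 88.7) lay at −0.83. Bag1 (507 and 590.4) and Bag5 (73.0 and 55.0) lay at 0.04 and 0.66. Thus 3 of the 6 genes were at least 2-fold below the median gene (50.0%, against 14.8% of all genes) and 2 were above it. Bag2, among these 3, was scarce, with a mean exon value of 6.65. Its low ratio came from a 378-base transcript (1.29 labeled and 7.17 unlabeled, log2 −2.22). The 1860-base Bag2 transcript (2.2 and 2.63) lay at −0.00.

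The adaptors were both below the median gene. Stip1 (HOP), which bridges HSP70 and HSP90, had 350 labeled and 631 unlabeled (−0.60), and St13 (HIP), which stabilises the HSP70 complex, had 504 and 1104 (−0.87). Hsf1 itself had 58.5 and 66.8 (0.07), close to the median gene.

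Grouped by regulation and place, the 13 genes of the heat shock list (Hspa1a, Hspa1b, Hspa8, Hsp90aa1, Hsp90ab1, Hsph1, Hspd1, Hspe1, Hspb1, Dnaja1, Dnajb1, Bag3 and Stip1, of which Hspa8 and Hsp90ab1 are known as constitutive forms) had a median log2 ratio of −0.34, with Hspe1 at least 2-fold above the median gene and Bag3 and Hsph1 at least 2-fold below it. The genes above and below were 7.69% and 15.4% of the list, against 21.9% and 14.8% of all genes. The 4 genes with the heat shock element as written here had no common direction, with Hspe1 at 1.28 and Hspd1, Dnajb6 and Hsph1 at −0.52, −0.81 and −1.07. Dnajb6 is not on the heat shock list. Most of that list lacked a match: Hspa1a, Hspa1b, Hspb1, Dnaja1, Dnajb1, Bag3 and Stip1 had windows without 1, and Hspa8, Hsp90aa1 and Hsp90ab1 had no window. The 11 genes of the ER had a median of −0.47, and 8 of them were below the median gene. The 3 with an ER stress response element, Hspa5, Hsp90b1 and Dnajc3 (41.8 labeled and 69.1 unlabeled), each lay at −0.47. Their mean exon values spanned 48.3-fold. The value is not particular to them, since Dnajc21, which had a window without a match, lay at −0.46. Relative to the genes of the same length, Hspa5, Hsp90b1 and Dnajc3 lay apart, at −0.49, −0.18 and −0.01. The 6 mitochondrial genes had a median of −0.30. Of the 12 forms known from testis or muscle, 9 passed, none with a mean exon value above 13.5.

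Co-chaperones and tubulin-folding partners outside the rule, 30 genes on a fixed list, had a median of 0.27. Of these, 8 were at least 2-fold above the median gene (26.7%, against 21.9% of all genes). At least 2-fold below it were 2 (6.67%, against 14.8%). The 2 below were Ptges3 (p23, which stabilises the closed form of HSP90; 997 labeled and 5086 unlabeled, log2 −2.09) and Hyou1 (the HSP110 of the ER; 109.5 and 449, log2 −1.78). Both were lower than every chaperone gene of the rule. The highest were Unc45a (2.40), Sil1 (2.14) and Stub1 (CHIP, 1.98), with mean exon values of 11.9, 6.29 and 19.6. These genes were chosen with the results of the rule's genes known and describe only themselves.

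The exon ratio also varied with level and transcript length. Among genes with a mean exon value of at least 100, the 39 chaperone genes had a median of −0.28 and all 4402 genes −0.38, with 10.3% of the chaperone genes and 19.6% of all genes at least 2-fold below the median gene. Among those with at least 1000, the 19 chaperone genes lay between −1.07 and 1.28, with 1 gene at least 2-fold above (5.26%, against 16.9% of 599 genes) and 1 at least 2-fold below (5.26%, against 23.7%). Spearman's rho between log2 ratio and spliced length was −0.44 over the 39 chaperone genes with at least 100 and −0.44 over all 4402, where genes share both libraries and are not independent. Over all 88 chaperone genes it was −0.19, and over all 14127 genes −0.29. Median log2 ratios over all genes went from 0.54 in the shortest of 5 equal-sized bins of spliced length through 0.36, 0.03 and −0.29 to −0.46 in the longest. Those of the chaperone genes, with 23 to 9 genes per bin, were 0.19, 0.52, −0.40, −0.29 and −0.07 and did not fall steadily. The most abundant coding transcript was under 1076 bases in 23 of the 88 chaperone genes. Bag6 and Dnajc13 were binned by their most abundant coding transcripts, short models of 444 and 668 bases, while the ratios are sums over all coding transcripts. Bag6 transcripts of 3536 to 3858 bases lay between −1.96 and −1.77, and Dnajc13 transcripts of 6747 and 8012 bases at −1.36 and −1.26. Cct3, Cct8, Dnaja1, Dnajb11 and Dnajc7 were likewise binned by models of 474 to 916 bases, although each has longer coding transcripts. Values centred by length rest on these model lengths. Centred within these bins, 9 chaperone genes were at least 2-fold above and 12 at least 2-fold below the median.

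**Figure D4:**
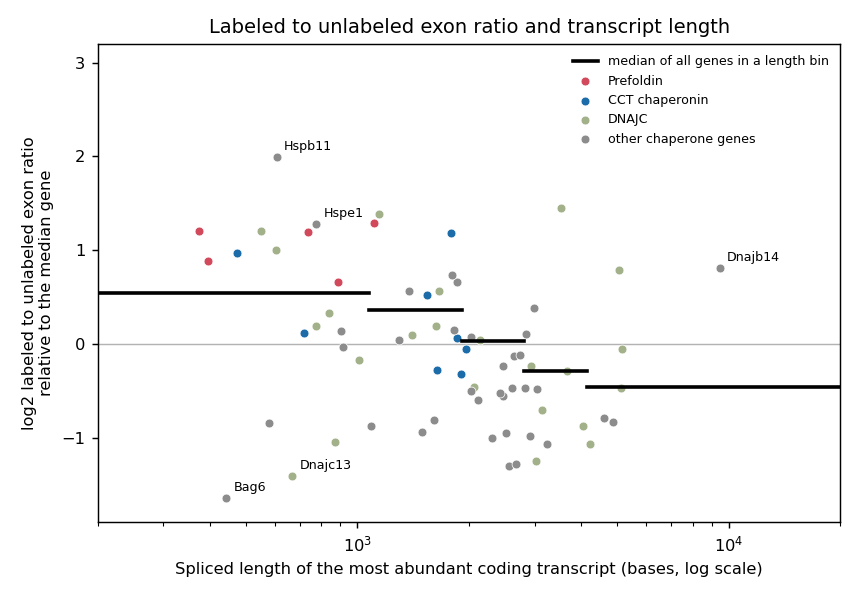
Log2 labeled to unlabeled exon ratio relative to the median gene (y axis) against the spliced length of the most abundant coding transcript (x axis, bases, log scale) for the 72 chaperone genes with a mean exon value of at least 10, with 1 point per gene. Black bars are the medians of all genes in each of 5 length bins, which go from 0.54 to −0.46, and the prefoldin genes all lie above the bar of their bin.

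Introns report on RNA that has not yet been spliced. The intron to exon ratio could be formed for 78 chaperone genes, and its median was 0.319 in labeled and 0.0568 in unlabeled RNA, against 0.577 and 0.122 over 13026 genes. The labeled ratio exceeded the unlabeled one in 74 of the 78 genes. It did not in the other 4, and over all genes it did not in 1176 of 13026. A labeled ratio of 1 or more was found in 12 chaperone genes, or 15.4%, against 28.9% of all genes. The ratio was lower at higher levels, and in each bin of level the chaperone median lay below that of all genes. With a mean exon value under 100 the median labeled ratio was 0.568 against 0.791, between 100 and 1000 it was 0.170 against 0.363, and from 1000 up it was 0.0917 against 0.149. The bins do not match the level within them. Median mean exon values in the bins were 19.9 against 16.3, 520 against 224 and 1937 against 1845.

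The 2 lowest unlabeled ratios belonged to the most abundant chaperone genes. Hsp90aa1 had intron values of 384 in labeled and 33.95 in unlabeled RNA, which gave ratios of 0.0120 and 0.000957. Hspa8 had 434 and 23.6, with ratios of 0.0404 and 0.00130. Hspb1 had 1.22 and 0.97, with ratios of 0.00535 and 0.00393, so its introns were near 0 in both libraries. Hspa13 and Dnajc21, a J-domain protein of ribosome biogenesis, had unlabeled ratios of 0.00280 and 0.00426. The genes of the heat shock list with introns had medians of 0.0567 and 0.0148. By family, the CCT genes had medians of 0.0945 and 0.0193 and the prefoldin genes 0.115 and 0.0765.

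At the other end, among genes with a mean exon value of at least 10, were mostly J-domain genes of low level. Dnajc17, which carries an RNA recognition motif, had exon values of 16.2 labeled and 21.7 unlabeled, intron values of 53.2 and 32.8, and thus ratios of 3.28 and 1.51. Dnajc12 had ratios of 5.40 and 0.630, Dnajb4 had 3.16 and 0.525, and Dnajc14 had 2.12 and 0.517. Cct6b had 0.875 and 0.525. The DNAJB genes had a median labeled ratio of 0.936 and DNAJC genes 0.515. The labeled ratio was 1 or more in 4 of 9 and 7 of 24 genes (44.4% and 29.2%, against 28.9% of all genes).

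Some intron values cover bases that are exon in another transcript of the gene. This held for at least 1% of the intron bases in 115 of 231 chaperone transcripts with introns, and for at least 10% in 38. Hsp90ab1 shows the size it can reach. Its gene ratio in unlabeled RNA was 0.100, from an intron value of 1396, of which short transcripts with 33.0% and 25.2% of their intron bases in exons of other coding transcripts gave 941 and 437. Its most abundant transcript had intron values of 60.95 labeled and 8.17 unlabeled and ratios of 0.0184 and 0.00123. In Cct3, a 474-base model whose intron bases all lie in other coding exons had a labeled intron value of 4.98 and an unlabeled one of 25.5. When transcripts with 1% or more of such bases were left out (chosen after seeing the data), the unlabeled ratio of Hsp90ab1 was 0.0108.

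Transcripts of a gene did not always share a ratio. In the 44 genes with at least a pair of coding transcripts of mean exon value 10 or more, the range of log2 ratios within a gene exceeded 1 in 9. The widest was Hsph1, whose 7 transcripts lay between −3.09 and −0.66. The 4 long Hsph1 transcripts, of 3054 to 3802 bases, lay between −1.14 and −0.66, and the 3 short ones, of 416 to 661 bases, between −3.09 and −2.48. Dnajb6 (−1.29 to 0.68) and Dnajc6 (auxilin, which uncoats clathrin vesicles; −2.35 to −0.54) followed. At the narrow end, transcripts of Bag1 and of Hspa5 differed by 0.02. Transcript models marked as incomplete at an end in GENCODE held 29.5% of the chaperone exon value in labeled and 29.7% in unlabeled RNA. Without them, a choice made after seeing the data, Bag6 lay at −1.83, Dnajc13 at −1.30 and Hsp90ab1 at −0.73. Without them 4 genes were no longer 2-fold from the median gene: Hsph1 (−0.91), Dnajc6 (−0.68) and Dnajc12 (−0.60) on the low side and Dnajc28 (0.85) on the high side.

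In the model of the study, a transcript is made at a constant rate, processed and then degraded, and the pair of intron to exon ratios gives the processing and degradation rates if the unlabeled ratio is below the labeled ratio and the latter below 1. Of 213 chaperone transcripts that passed the minimum and had introns above 0 in both libraries, 49 did not meet this, or 23.0% (95% Wilson interval over transcripts 17.9 to 29.1%), against 33.3% of all 31386 transcripts. The 213 transcripts come from 78 genes, and transcripts of a gene are not independent, so this interval is too narrow. The shares were also not matched for level. Median mean exon values were 73.1 for chaperone genes and 38.1 for all genes. A labeled ratio of 1 or more was seen in 41 chaperone transcripts, and 8 had a labeled ratio that did not exceed the unlabeled one. Of the 164 compatible transcripts, 36 had rates that solve the model exactly. The other 128, or 78.0% against 57.2% of all compatible transcripts, lay below the line of the model without a solution, and their rates come from the reduced form of the distance that the study minimises. Minimising over both rates came closer to the measured ratios, for the most abundant Hsp90aa1 transcript with a misfit of 2.64 against 3.07 on the natural log scale.

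**Figure D5:**
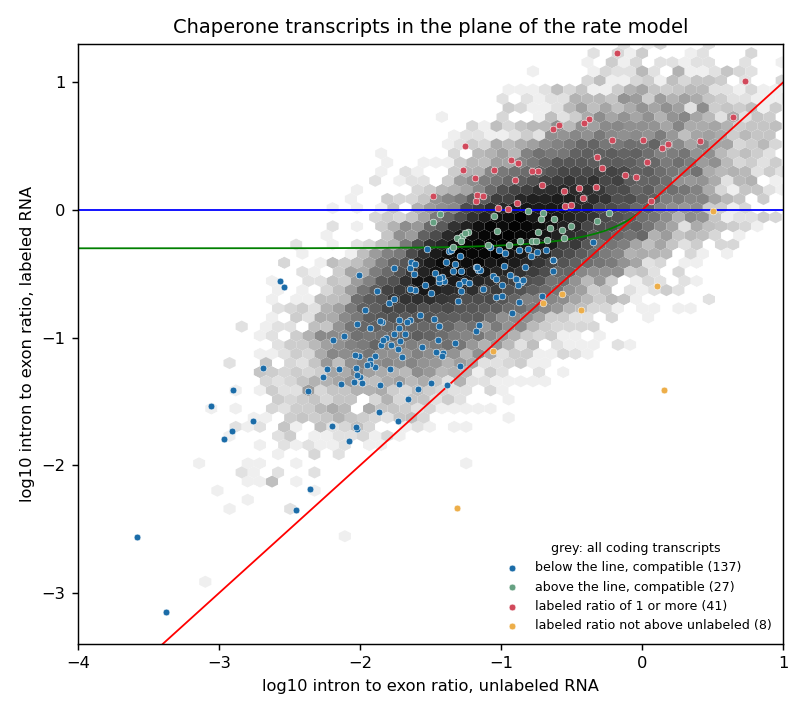
Log10 intron to exon ratio in unlabeled RNA (x axis) and labeled RNA (y axis) of 213 chaperone transcripts, with 1 point per transcript and colors for the region of the model, over the density of all coding transcripts in grey. The blue line is a labeled ratio of 1, the red line equal ratios, and between them the green line bounds the region where a solution always exists. Chaperone transcripts concentrate below the green line (137), with 27 above it, 41 above the blue line and 8 below the red line.

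The degradation half-lives from this model had a median of 31.4 min over the 164 transcripts (quartiles 12.8 and 66.4 min), against 19.0 min over all compatible transcripts. Among transcripts with an exact solution the order was the opposite, with 14.7 min over 36 chaperone transcripts against 24.3 min over all. Half-lives of the most abundant transcripts were 179 min for Hsp90aa1, 158 min for Hsp90ab1, 98.7 min for Hspa8, 89.1 min for Hspd1 and 208 min for Hspe1, all without an exact solution. Minimising over both rates gave 9.55, 9.27, 9.79, 6.12 and 5.95 min for these transcripts. Reading the unlabeled library as total RNA, as 1 label has it, gave 99.7, 100, 226 and 36.9 min for the first 4, and for Hspe1 it lowered the value by more than 10-fold. Their half-lives thus depend on the fit and on what that library holds. Longer half-lives were also given for less abundant transcripts, such as 1193 min for a Dnajc6 transcript of mean exon value 70.1 and 860 min for Hspb1. Of the 19 compatible transcripts with a mean exon value of at least 1000, 18 had no solution. Pfdn1, with the highest labeled share of prefoldin and an exact solution, had 4.43 min, which became 19.5 min under that other reading.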

How the data were processed

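Labeled and unlabeled RNA of wild-type mESC gave 1 library apiece (replicate 1), so no test was made and p-values do not apply. After removal of ribosomal reads, the authors used STAR 2.5.0 and RSEM to quantify exonic and intronic sequences (GRCm38). The deposited unit is a length-normalised signal, called TPM by the authors, whose columns add up to 10 times what TPM would. It holds no counts of reads, and depth and counting error are therefore unknown.

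Of 121429 exon values, 90.9% were matched to GENCODE M21, which gave biotypes, symbols and lengths. Exon and intron values were summed over the protein-coding transcripts of a gene. The log2 labeled to unlabeled exon ratio was centred on the median of the 14127 genes with a mean exon value above 1 and both exon values above 0, and a gene was counted as above or below from 2-fold. Intron to exon ratios used transcripts with an intron value. Rates were computed per transcript with the equations of the study on 4000 grid points, with 10 min as the labeling time. Medians have order-statistic intervals and shares Wilson intervals, which cover the number of genes or transcripts only. The members and lists were chosen with earlier results of these data known. Named genes were every gene of the families CCT, prefoldin, HSP90, HSP70 and HSP110, mitochondrial chaperonin, BAG, adaptors, Hsf1 and the heat-inducible list, and of the J-domain and small heat shock families the 3 most abundant. Over members with a mean exon value of at least 10, the 5 highest and the 5 lowest in exon ratio and in unlabeled intron to exon ratio were also named, and of genes with several transcripts the 3 with the widest range. Other genes named (Dnajb2, Dnaja4, Dnajc3, Vbp1 and those of the lists outside the rule) were chosen after their values were seen. Promoter windows are RefSeq's on GRCm38.p6. The scripts were tested on simulated data. Python 3.11.15 was run with scipy 1.17.1, numpy 2.4.6, matplotlib 3.10.9 and pandas 2.3.3.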

Additional observations from a re-analysis of the deposited data

How the results depend on the processing

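Under the alternatives tried, 65 values stayed within their interval over genes or within 1.5 times the main count and 12 moved beyond it. The count of 65 does not measure robustness, since some intervals were wide. For CCT the interval, −0.32 to 1.18, was the full range of its 8 genes. The CCT median (0.09) was 0.65 with the intron value subtracted and 0.47 centred on genes with a mean exon value of at least 100. Both stayed inside that interval. The medians near 0 changed sign under some alternatives, although the intervals of the reported values include 0. Centred on genes with a mean exon value of at least 100, the median log2 ratio of the chaperone genes was 0.42, that of DNAJC genes 0.33, and 25 genes were at least 2-fold above and 2 below. That centring raised all genes by the same amount. Centred within the 5 bins of spliced length, a choice made after seeing the data, 9 were above, and the medians were −0.18 for chaperone genes (from 0.04) and −0.19 for CCT genes (from 0.09). With a mean exon value above 10, 5 were at least 2-fold below and 15.9% of transcripts were incompatible with the model. With the intron value subtracted from the exon value, the medians were 0.48 for chaperone genes and 0.60 for DNAJC genes (from −0.05). After subtraction of leakage (0.143 times the unlabeled value for genes), 20 genes were at least 2-fold below. The median half-life was 14.7 min over transcripts with a solution and 4.77 min when both rates were fitted at once. The causes of these moves were not tested. No paired analysis was possible because each pool holds 1 library. Read depth is unknown, so genes with low values cannot be told from their counting noise.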

Other observations

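Processing half-lives, the time in which the model splices a transcript, had a median of 3.44 min over the 164 compatible chaperone transcripts, against 3.88 min over all compatible transcripts. The most abundant transcripts of Hspa8, Hsp90aa1, Hsp90ab1 and Cct2 had 1.77, 2.01, 2.03 and 2.47 min, those of Hspd1 and Hsph1 had 2.80 and 3.23 min, and those of Hspe1 and Pfdn1 had 3.61 and 3.73 min. Of these, only Pfdn1 had an exact solution.

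Among genes whose labeled intron to exon ratio did not exceed the unlabeled ratio were Hspb11 (0.207 and 0.215) and Dnajc19 (TIM14, part of the import motor of the mitochondrial inner membrane; 0.471 and 0.515), both at least 2-fold above the median gene in exon ratio. For Dnajc19 this rests on 1 transcript, with an unlabeled intron value of 129; without transcripts that have 1% or more of their intron bases in other coding exons its ratios were 0.439 and 0.162, the opposite order. The other 2 of these 4 genes, Dnaja4 and Hspa12b, had unlabeled exon values of 3.88 and 0.35. Across the tubulin-folding cofactors, Tbca, Tbcb and Tbcc had log2 exon ratios of 1.07, 1.23 and 1.37, and Tbcd and Tbce had −0.43 and 0.10. These genes were named after their values were seen.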
